A study of Mus musculus with 8 samples.

Results

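Matrix metalloproteases, ADAM and ADAMTS proteases, their TIMP inhibitors and the urokinase pair Plau and Plaur were followed in mouse bone marrow-derived macrophages. Members were taken by gene symbol alone, which gave 73 of the 41444 genes listed: 21 Mmp genes, 27 Adam genes, 19 Adamts genes, 4 Timp genes, and Plau with Plaur. Macrophages were grown from the marrow of wild-type C57BL/6 mice in medium with the growth factor M-CSF. The treated cells received 6 nM SLIT2, a secreted guidance protein that binds ROBO receptors, for 16 hours, and the others received vehicle. Each group held 4 libraries of messenger RNA, and the comparison asks how SLIT2 alters transcription in these cells. The labels do not say how many mice were used or whether marrow was pooled. Values are regularized-log (rlog) values, which are on a log2 scale and corrected for library size. They carry no read counts, so the depth behind each value is unknown.

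Matrix metalloproteases are zinc-dependent enzymes, secreted or bound to the membrane, that cut collagens, elastin and other matrix proteins. ADAMs sit in the membrane and release the outer parts of other membrane proteins such as the cytokine TNF, while ADAMTS proteases are secreted and act on the matrix. TIMPs block the active site of metalloproteases. Urokinase, encoded by Plau, is a serine protease that turns plasminogen into plasmin, and its receptor, encoded by Plaur, holds it at the cell surface. Macrophages use these enzymes to move through tissue, remodel matrix and shed surface receptors.

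Of the 73 genes, 25 reached a mean rlog of 4 across the 8 libraries. They are called expressed here and were tested. A further 17 were listed at 0 in every library, and 31 lay below the limit without being at 0, with SLIT2 minus vehicle differences between -0.095 and 0.21. The genes at 0 were Mmp7, Mmp20, Adam2, Adam5, Adam7, Adam20, Adam24, Adam25, Adam29, Adam34, Adam39, Adamts8 and Adamts16 to Adamts20. The lowest gene above the limit was Adam4, with a mean rlog of 4.21, and the highest gene below it was Mmp11, at 3.94. Expressed members were 8 of 21 Mmp genes, 10 of 27 Adam genes, 2 of 19 Adamts genes, 3 of 4 Timp genes, and both Plau and Plaur. Mmp2, the gelatinase that MMP14 is known to activate, lay below the limit, with a mean rlog of 3.71. Timp4 was also below it, with a mean rlog of -1.41, and the stromelysin gene Mmp3 stood at 0.33. The other Mmp genes below the limit were Mmp10, Mmp15, Mmp16, Mmp17, Mmp21, Mmp23, Mmp24 and Mmp28, from 3.36 for Mmp10 to -1.55 for Mmp21. The Adam genes there were Adam3, Adam11, Adam12, Adam18, Adam21, Adam23, Adam30 and Adam32, from 3.15 for Adam32 to -1.95 for Adam18. The Adamts genes were Adamts2 to Adamts7, Adamts9 and Adamts12 to Adamts15, the highest being Adamts2, at 3.45.

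Levels can be compared between genes only per length, so log2 of the exonic length in kilobases was subtracted from each mean rlog. This length merges the exons of all annotated transcripts of a gene. It can exceed the length of the RNA that is made, so the order is approximate. Before the subtraction Mmp12 was highest, with a mean rlog of 14.34 against 14.21 for Timp2, and its merged length was 7237 bases. On this per-kilobase rlog scale the highest level was that of Timp2, at 12.2, followed by Adam8 at 11.7, Mmp12 at 11.5 and Plau at 10.6. Adam9, Adam17, Adam15 and Adam10 followed closely, with levels of 10.2, 10.2, 10.1 and 10.1. Mmp19, Mmp14 and Plaur came next, at 9.18, 8.59 and 8.02. Timp1 ranked 17 of 25 on the same scale, at 6.31, and the lowest level was that of Adam28, at 1.53.

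**Figure D1:**
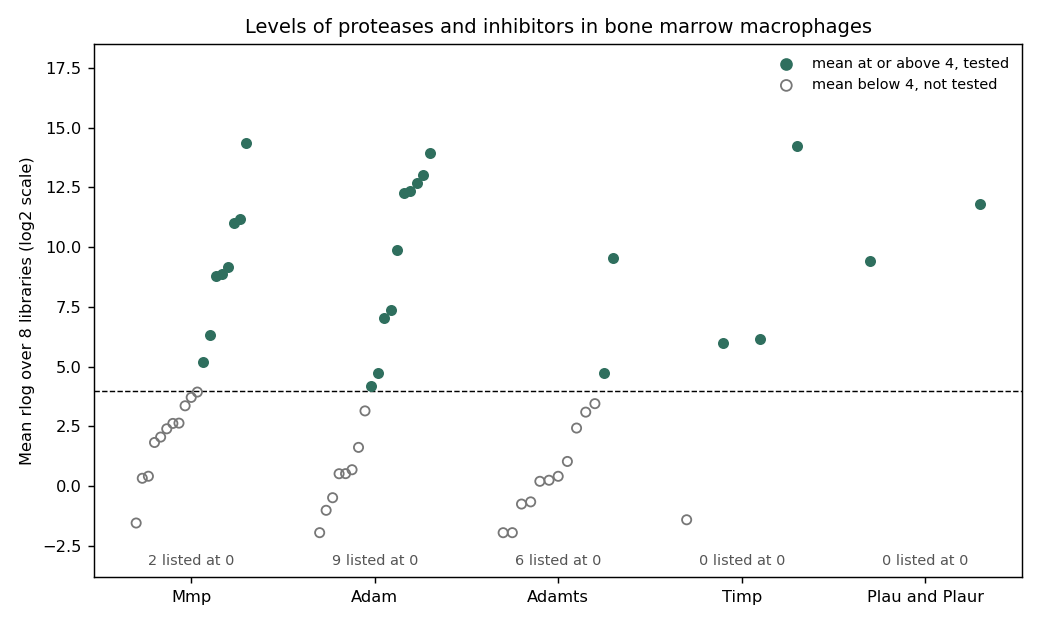
Mean rlog over the 8 libraries (y axis, log2 scale, not corrected for length) of the members that were not listed at 0, by family (x axis). Filled points are the 25 genes at or above the dashed limit of 4, open points are the 31 below it, and the number listed at 0 stands under each family.

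SLIT2-treated macrophages had less urokinase receptor, urokinase, macrophage elastase and ADAM8 messenger RNA, and more of Timp1, Mmp19 and Adam9. In a limma fit with treatment only, 7 of the 25 expressed members passed an adjusted p of 0.05, 3 higher and 4 lower with SLIT2. Among all 11851 genes tested, 13.3% passed, 6.76% higher and 6.58% lower. All 7 differed by at least 0.5 on the log2 scale, and 2 by at least 1. The median absolute difference was 0.46 over the members and 0.11 over all genes tested, and the median signed difference was 0.043 and 0.0025. SLIT2 and vehicle values did not overlap for 9 of the 25 members, where this held for 20.5% of all genes tested.

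The libraries also fell into sets by number. In both groups, libraries numbered 1 and 2 separated from those numbered 3 and 4, and 50.1% of the sum of squares of the 25 members went with this split, where 42.0% went with treatment. Over all genes tested the shares were near these, at 46.7% and 37.3%. Xist, an RNA of female cells, was between 7.47 and 7.65 in replicates 1 and 2 and between 12.69 and 12.79 in replicates 3 and 4, in both groups. The Y-linked gene Ddx3y was between 10.75 and 10.83 in replicates 1 and 2 and between 5.90 and 6.45 in replicates 3 and 4. The replicate set and a difference in the sex of the cells therefore cannot be told apart. At a fixed treatment, 19 of the 25 members differed in level between these replicate sets at an adjusted p of 0.05, against 57.0% of all genes tested, and 15 of the 19 were lower in replicates 3 and 4. With the replicate number as a block, 15 members passed, 9 higher and 6 lower with SLIT2, the 7 above among them, and 33.0% of all genes tested passed. When duplicates of a set were averaged, with the set as a term, 8 members and 5.81% of all genes tested passed. The 8 were Plaur, Plau, Timp1, Mmp19, Mmp12, Adam9, Mmp14 and Mmp8. Adam8, Adam15, Adam17, Adam33, Mmp13, Mmp25 and Mmp27 passed with the block and not on averaged duplicates. Averaging left few values per gene, so the p-values of that fit rest largely on variance pooled over genes. All 25 members had the same sign of difference in both sets. The labels name no cultures or animals, so p-values here measure the spread between these libraries, which may be technical.

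**Figure D2:**
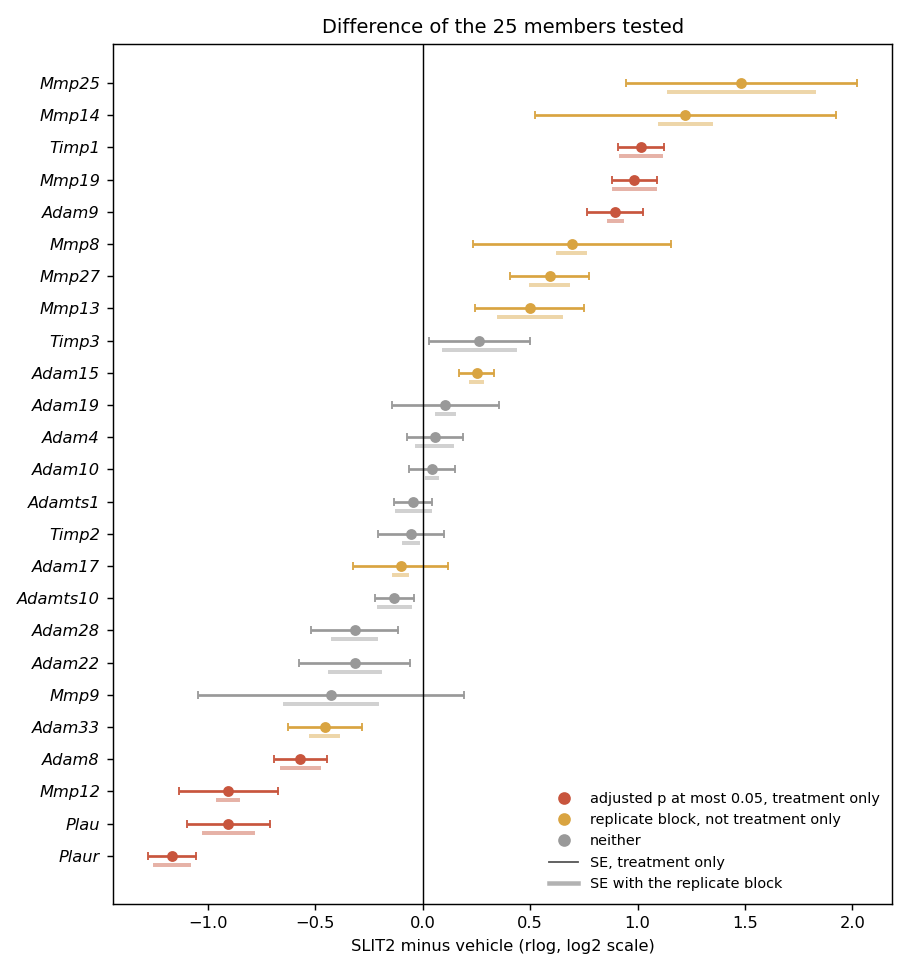
SLIT2 minus vehicle difference (x axis, rlog, log2 scale) of the 25 expressed members (y axis), with the standard error (SE) of the treatment fit as a thin bar and that of the fit with the replicate block as a thick bar. Plaur, Plau, Mmp12 and Adam8 lie lowest among genes past the threshold in both fits, and Timp1, Mmp19 and Adam9 lie highest among them. Mmp25 and Mmp14 lie further right and, of the fits drawn, passed with the block alone.

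The stretch of 250 bases before the start of the gene in RefSeq is shown for the receptor that fell furthest (Plaur), the inhibitor that rose furthest (Timp1), and neighbouring Mmp genes whose differences had opposite signs (Mmp12 and Mmp13). Sequences are from RefSeq on GRCm38.p6, which held a promoter for 17 of the 25 expressed members. They lie at chr7:24462233-24462482, chrX:20869916-20870165, chr9:7344147-7344396 and chr9:7272264-7272513, all on the plus strand. The RefSeq start of Mmp12 lies 16 bases downstream of the GENCODE start given below for that gene, so the last 16 bases of its window lie inside the GENCODE gene. Capitals mark the AP-1 motif TGANTCA, and both strands were searched.
Plaur: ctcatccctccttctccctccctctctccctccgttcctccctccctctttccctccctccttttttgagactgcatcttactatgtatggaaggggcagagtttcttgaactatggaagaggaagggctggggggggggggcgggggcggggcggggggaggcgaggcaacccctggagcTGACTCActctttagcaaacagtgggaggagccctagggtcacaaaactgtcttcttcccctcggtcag
Timp1: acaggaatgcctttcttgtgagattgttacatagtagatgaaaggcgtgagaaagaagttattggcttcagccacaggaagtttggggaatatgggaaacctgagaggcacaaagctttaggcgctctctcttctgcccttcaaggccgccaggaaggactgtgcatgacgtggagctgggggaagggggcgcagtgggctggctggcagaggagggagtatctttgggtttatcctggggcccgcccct
Mmp12: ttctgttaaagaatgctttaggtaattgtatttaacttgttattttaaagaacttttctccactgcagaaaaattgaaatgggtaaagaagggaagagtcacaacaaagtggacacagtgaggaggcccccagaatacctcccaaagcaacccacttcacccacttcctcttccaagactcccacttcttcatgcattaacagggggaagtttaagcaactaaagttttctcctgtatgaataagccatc
Mmp13: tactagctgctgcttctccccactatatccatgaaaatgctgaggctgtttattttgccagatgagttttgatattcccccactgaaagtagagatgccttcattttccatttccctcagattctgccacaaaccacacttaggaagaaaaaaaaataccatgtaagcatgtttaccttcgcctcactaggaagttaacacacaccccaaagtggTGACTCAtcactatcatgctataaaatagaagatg
The motif stands 69 bases before the RefSeq start in Plaur and 35 bases before it in Mmp13, as TGACTCA in both. It was found in 3 of the 17 windows, the third being Adam19, and in 6.75% of 32817 windows of the same length across the genome. The STAT motif TTCNNNGAA was in 0 of the 17 windows and in 7.01% of all windows. The NF-kB motif, written GGG, NN and TTTCC in a row, was in 0 of the 17 and in 1.41% of all, so no match overlapped another motif. A match is a run of letters and not a measured binding site.

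Both genes of the urokinase pair fell. Plaur (ENSMUSG00000046223, chromosome 7, 24462484 to 24475968 in GRCm38), the membrane-anchored receptor, had rlog values of 9.10, 8.83, 8.56 and 8.79 in SLIT2 replicates 1 to 4, against 9.96, 10.04, 9.86 and 10.09 in vehicle replicates 1 to 4. Every SLIT2 library lay below every vehicle library. The difference was -1.17 (SE 0.11, limma adjusted p = 0.000434), a ratio of 0.445. Plau (ENSMUSG00000021822, chromosome 14, 20836660 to 20843385), the protease, had 11.87, 11.38, 11.03 and 11.18 in SLIT2 libraries and 12.33, 12.59, 11.98 and 12.18 in vehicle libraries. Its groups did not overlap, with the highest SLIT2 value, that of replicate 1, just under the lowest vehicle value, that of replicate 3. Plau differed by -0.91 (SE 0.19, limma adjusted p = 0.0181), a ratio of 0.534. The Plau call was lost without SLIT2 replicate 2 (limma adjusted p = 0.0502) or vehicle replicate 1 (0.0519), and held without any one of the other 6 libraries. Within replicates 1 and 2 and within replicates 3 and 4, Plaur differed by -1.04 and -1.30 and Plau by -0.84 and -0.98. On bulk RNA, fewer cells that express a gene and less RNA per cell cannot be told apart.

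Of 13 other genes listed for the plasminogen system, 7 were tested, 1 rose and none fell, with a median difference of 0.035. That share is near the 13.3% of all genes tested. The one that rose was S100a10, part of a surface receptor for plasminogen, by 0.18 (limma adjusted p = 0.0327), with 12.32 ± 0.044 in SLIT2 and 12.14 ± 0.059 in vehicle libraries (SD, n = 4 each). The tissue activator gene Plat and the inhibitor gene Serpinb2 lay below the limit, with mean rlog values of 1.79 and 3.71 over all libraries.

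Among the secreted matrix metalloproteases, elastase and Mmp19 moved in opposite directions. Mmp12 (ENSMUSG00000049723, chromosome 9, 7344381 to 7369499), which encodes macrophage elastase, had 14.28, 14.18, 13.42 and 13.68 in SLIT2 libraries, against 15.05, 15.14, 14.45 and 14.54 in vehicle libraries. The groups did not overlap, and in each group replicates 3 and 4 lay lower than replicates 1 and 2. The difference was -0.91 (SE 0.23, limma adjusted p = 0.0378), a ratio of 0.534, and was -0.87 and -0.95 within the sets. With the replicate block the SE was 0.047 and the limma adjusted p 8.05e-05. The opposite-strand gene Mmp1b shares 157 of the 7237 exonic bases and had a mean rlog of -1.54 in SLIT2 and -1.55 in vehicle libraries. Without the block, the Mmp12 call was lost on leaving out SLIT2 replicate 2 (limma adjusted p = 0.0539), SLIT2 replicate 3 (0.0802) or SLIT2 replicate 4 (0.0909). It was likewise lost without vehicle replicate 1 (limma adjusted p = 0.0968), vehicle replicate 2 (0.0948) or vehicle replicate 4 (0.0547).

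Mmp19 (ENSMUSG00000025355, chromosome 10, 128790910 to 128800824), a protease of basement membrane proteins, had 11.65, 11.71, 11.42 and 11.21 in SLIT2 libraries and 10.53, 10.47, 10.48 and 10.57 in vehicle libraries. All SLIT2 values lay above all vehicle values, which were within 0.10 of each other. The difference was 0.99 (SE 0.10, limma adjusted p = 0.000678), a ratio of 1.98, and was 1.18 and 0.79 within the sets. An opposite-strand gene, Tmem198b, shares 789 of the 3533 exonic bases of Mmp19. Whether the authors' counting used strand was not stated in the labels. Tmem198b had mean rlog values of 9.07 in SLIT2 and 8.93 in vehicle libraries.

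**Figure D3:**
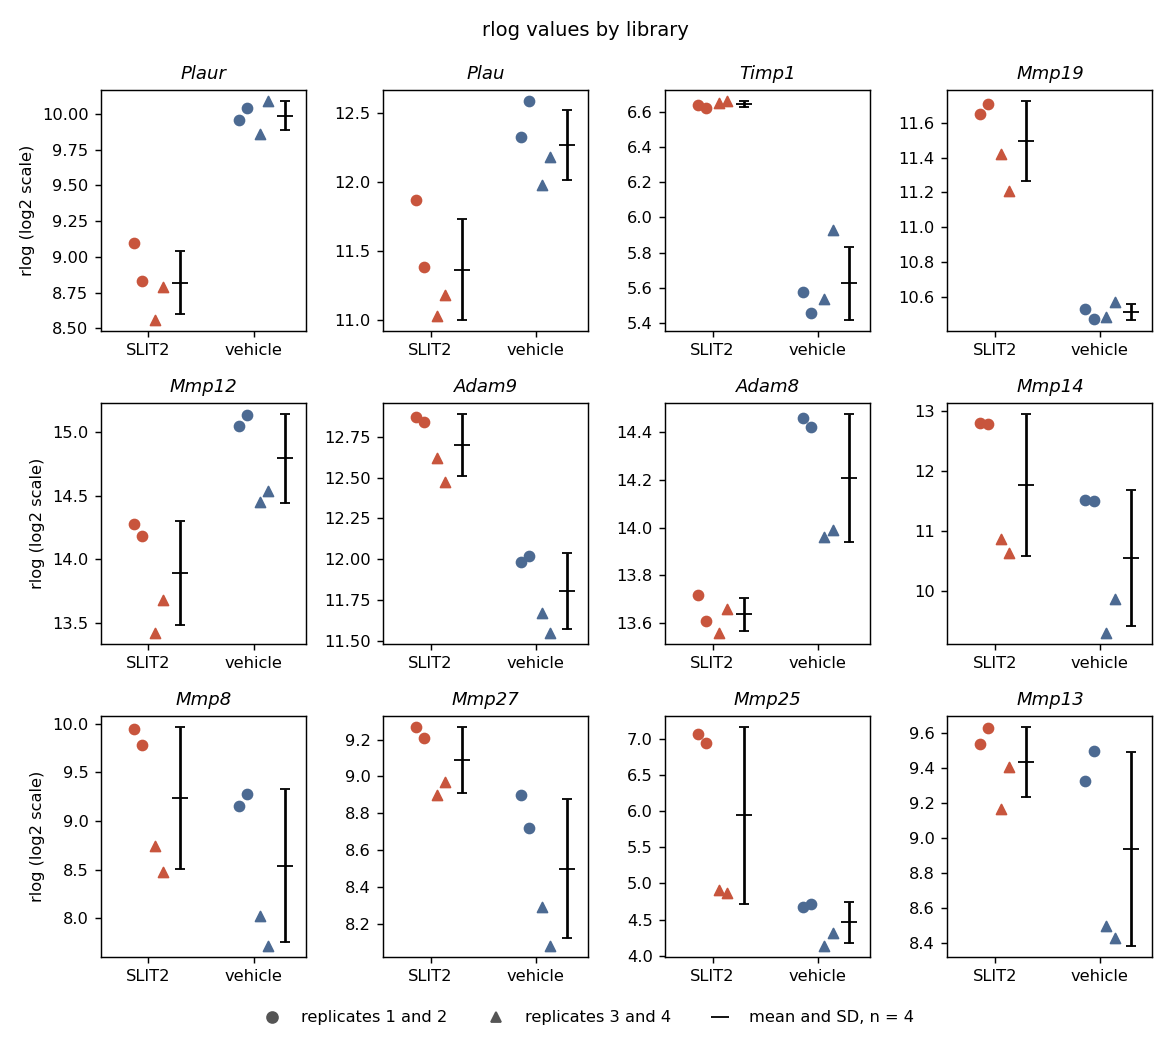
rlog value (y axis, log2 scale, a separate range per panel) in each SLIT2 and vehicle library for 12 members, with the mean and SD beside each group (n = 4). Circles are replicates 1 and 2 and triangles are replicates 3 and 4. The groups do not overlap for the first 7 genes and for Mmp25, and Mmp14, Mmp8, Mmp27 and Mmp13 show the replicate sets standing apart within each group.

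Further metalloproteases were higher in both SLIT2 libraries than in both vehicle libraries of each replicate set. They passed with the replicate block or the set as a term and not in the fit with treatment only. With the set as a term, limma adjusted p-values were 3.59e-05 for Mmp14, 0.000282 for Mmp8, 0.00057 for Mmp27, 0.0144 for Mmp13 and 0.00361 for Mmp25. Of these, Mmp14 and Mmp8 also passed on averaged duplicates. Mmp14 (ENSMUSG00000000957, chromosome 14, 54431612 to 54445364), which encodes a membrane-anchored collagenase, had 12.80, 12.79, 10.87 and 10.64 in SLIT2 libraries and 11.53, 11.50, 9.31 and 9.87 in vehicle libraries. The groups overlapped, and replicates 3 and 4 stood far below replicates 1 and 2, with a set difference in level of -1.98, the largest of the 25 members. The difference between treatments was 1.22 (limma adjusted p = 0.324 without the block, SE 0.70, and 0.000677 with it, SE 0.12). It was 1.28 and 1.17 within the sets, and with single libraries left out and no block ran from 0.81, without vehicle replicate 3, to 1.60, without SLIT2 replicate 4.

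Mmp8, which encodes a collagenase best known from neutrophils, had 9.94, 9.78, 8.74 and 8.48 in SLIT2 libraries and 9.15, 9.28, 8.02 and 7.72 in vehicle libraries. SLIT2 replicates 3 and 4 lay below vehicle replicates 1 and 2, so the groups overlapped. Within each replicate set, both SLIT2 libraries exceeded both vehicle libraries. The difference was 0.69 (limma adjusted p = 0.404, and 0.000515 with the block) and was 0.65 and 0.74 within the sets. With single libraries left out and no block, it ran from 0.42, without vehicle replicate 4, to 0.94, without SLIT2 replicate 4. Mmp27 had 9.27, 9.21, 8.90 and 8.97 in SLIT2 libraries and 8.90, 8.72, 8.29 and 8.08 in vehicle libraries, a difference of 0.59 (limma adjusted p = 0.0754, 0.00381 with the block, 0.0777 on averaged duplicates and 0.0384 without vehicle replicate 1). The groups touched at 8.90, the value of SLIT2 replicate 3 and vehicle replicate 1.

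Mmp13 and Mmp25 differed in size between the replicate sets. Mmp13, the gene of collagenase-3, had 9.54, 9.63, 9.17 and 9.41 in SLIT2 libraries and 9.33, 9.50, 8.50 and 8.43 in vehicle libraries. Its difference was 0.50 over all libraries (limma adjusted p = 0.268, 0.0412 with the block and 0.208 on averaged duplicates), 0.17 in replicates 1 and 2 and 0.83 in replicates 3 and 4. Mmp25, which encodes a membrane-anchored protease known from leukocytes, had 7.06, 6.94, 4.91 and 4.86 in SLIT2 libraries and 4.68, 4.71, 4.14 and 4.31 in vehicle libraries. SLIT2 replicates 1 and 2 stood far above the other 6 libraries, and the groups did not overlap. Its difference was 1.48 (limma adjusted p = 0.120, 0.0187 with the block and 0.163 on averaged duplicates), 2.31 in replicates 1 and 2 and 0.66 in replicates 3 and 4. Testing in limma whether the effect changed with the set, on the spread of duplicates alone, gave adjusted p-values of 0.0315 for Mmp13 and 0.00207 for Mmp25. Of the 25 members, 3 passed this test, the third being Adam8, and 4.40% of all genes tested did. Without the mean-variance trend, Mmp25 passed (limma adjusted p = 0.00707), and Adam8 (0.0723) and Mmp13 (0.0842) did not. Mmp13 also did not pass with no filter on low values (0.0579).

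Neutrophil markers were checked beside Mmp8 and Mmp25. Of 6 markers, 2 were tested and 1 rose, where 6.76% of all genes tested rose. It was Csf3r, with 12.00 ± 0.18 in SLIT2 and 11.32 ± 0.10 in vehicle libraries (SD, n = 4 each, limma adjusted p = 0.00215). The summed linear level of the 6 markers ran from 3680 to 4773 in SLIT2 and from 2384 to 2796 in vehicle libraries, and was almost all Csf3r. The sum of the other 5 ran from 35.6 to 40.6 in SLIT2 and from 36.4 to 51.7 in vehicle libraries. The defining markers were at or near the bottom of the scale: Ly6g was listed at 0, and Mpo and Elane stood at -2.14 in every library. S100a8 had a mean rlog of 4.81 in SLIT2 and 4.97 in vehicle libraries. The macrophage markers Lyz2, Csf1r and Cd68 had mean rlog values of 18.75, 15.77 and 15.31 over all libraries. Of the 9 macrophage markers, 2 rose and 1 fell, where 6.76% of all genes tested rose and 6.58% fell. Fcgr1 differed by 1.17, Aif1 by 0.47 and Cd68 by -0.245 (limma adjusted p = 0.00160, 0.0346 and 0.0183).

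Mmp9, which encodes a gelatinase of macrophages, osteoclasts and other cells, was low, and its values followed the replicate set. It had 7.08, 6.40, 5.35 and 5.58 in SLIT2 libraries and 7.47, 7.67, 5.50 and 5.48 in vehicle libraries. The groups overlapped, the difference was -0.43 (SE 0.62, limma adjusted p = 0.741, and 0.177 with the block), and it was -0.83 and -0.025 within the sets. With single libraries left out, it ran from -0.78, without vehicle replicate 4, to -0.048, without vehicle replicate 2. Among 6 osteoclast markers, 3 were tested and 1 fell, where 6.58% of all genes tested fell. Dcstamp fell by 1.40 (limma adjusted p = 0.00615), while Acp5 and Ctsk differed by -0.05 and -0.02 and Calcr was listed at 0. The summed linear level of the 6 markers ran from 447 to 572 in SLIT2 and from 537 to 792 in vehicle libraries. The part of osteoclasts or other cells in the Mmp9 values was not tested.

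Several of these genes lie side by side. On chromosome 9, 8 of the Mmp genes of the symbol rule occupy 427.1 kb, from 7272514 to 7699585 in GRCm38, all on the plus strand. In genomic order they are Mmp13, Mmp12, Mmp3, Mmp10, Mmp8, Mmp27, Mmp20 and Mmp7. Expressed genes lay among genes below the limit: Mmp3 and Mmp10 were below the limit, Mmp20 and Mmp7 were listed at 0, and the other 4 had mean rlog values from 8.79 to 14.34. Mmp12, which fell, lies 61.0 kb from Mmp13, whose difference was 0.50. Mmp8 and Mmp27, with differences of 0.69 and 0.59, lie 2.91 kb apart. All 4 passed with the replicate block, Mmp12 lower and the other 3 higher with SLIT2. On averaged duplicates Mmp12 and Mmp8 passed (limma adjusted p = 0.0275 and 0.0360), and Mmp27 and Mmp13 did not (0.0777 and 0.208).

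**Figure D4:**
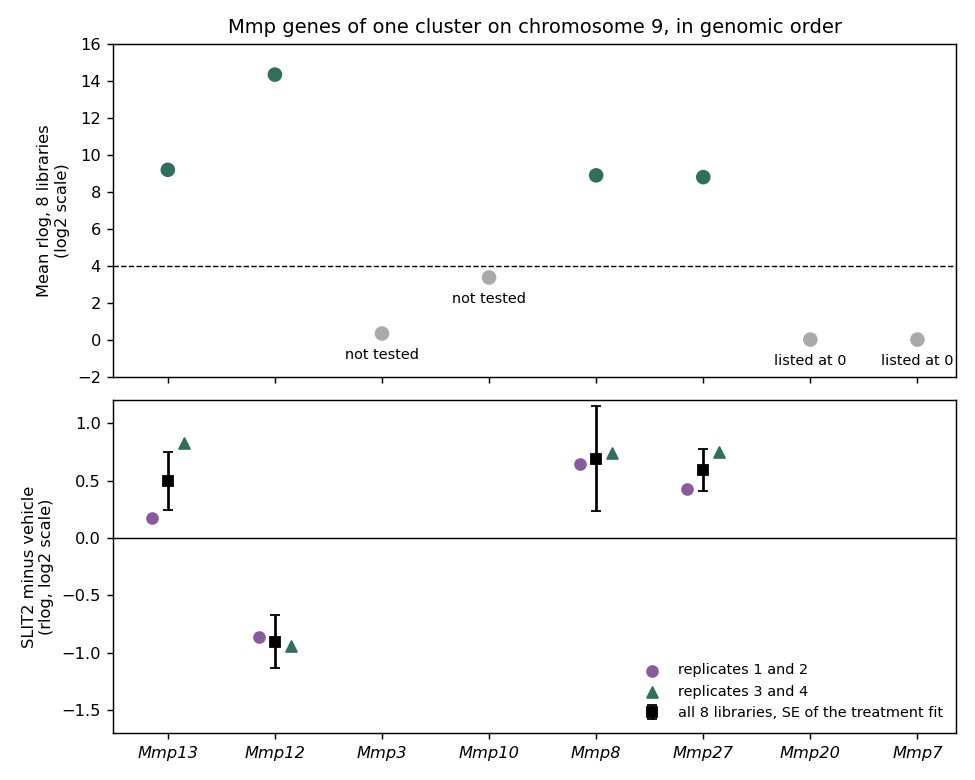
Mean rlog over 8 libraries (upper y axis, log2 scale) and SLIT2 minus vehicle difference (lower y axis, rlog, log2 scale) of 8 Mmp genes of chromosome 9 in genomic order (x axis, not to scale). Squares with SE bars are the treatment fit, circles replicates 1 and 2, and triangles replicates 3 and 4. Mmp12 lies near -0.9 in both sets, and Mmp13, Mmp8 and Mmp27 lie above 0 in both.

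Among the ADAMs, Adam9 rose and Adam8 fell. Adam9 (ENSMUSG00000031555, chromosome 8, 24949611 to 25016927), a widely expressed membrane protease, had 12.87, 12.84, 12.62 and 12.47 in SLIT2 libraries, against 11.98, 12.02, 11.67 and 11.55 in vehicle libraries. The groups did not overlap. The difference was 0.90 (SE 0.13, limma adjusted p = 0.00318), a ratio of 1.86, and was 0.86 and 0.94 within the sets. Adam8 (ENSMUSG00000025473, chromosome 7, 139978932 to 139992562), a membrane protease of leukocytes, had 13.72, 13.61, 13.56 and 13.66 in SLIT2 libraries and 14.46, 14.42, 13.96 and 13.99 in vehicle libraries. The groups did not overlap, and the replicate sets stood apart in vehicle libraries more than in SLIT2 libraries. Adam8 differed by -0.57 (SE 0.12, limma adjusted p = 0.0190), by -0.78 in replicates 1 and 2 and by -0.37 in replicates 3 and 4, and the test between the sets gave a limma adjusted p of 0.0152. The Adam8 call was lost without SLIT2 replicate 2 (limma adjusted p = 0.0555) or SLIT2 replicate 3 (0.0537), and on averaged duplicates (0.0992).

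The genes of the main sheddases did not pass in the fit with treatment only. Adam17, which encodes the TNF-converting enzyme, averaged 12.97 ± 0.39 in SLIT2 and 13.08 ± 0.34 in vehicle libraries (SD, n = 4 each), a difference of -0.10 (limma adjusted p = 0.839, 0.0426 with the block and 0.253 on averaged duplicates). Adam10, which encodes a sheddase of Notch and many receptors, averaged 12.38 ± 0.17 in SLIT2 and 12.33 ± 0.16 in vehicle libraries, a difference of 0.043 (SE 0.11, limma adjusted p = 0.864, and 0.211 with the block). Adam15 had a difference of 0.25, with groups that did not overlap (12.71 to 12.96 in SLIT2 and 12.43 to 12.69 in vehicle libraries, limma adjusted p = 0.0870, 0.00115 with the block and 0.0634 on averaged duplicates). An antisense gene shares 1263 of the 6145 exonic bases of Adam15, with a mean rlog of -0.20 in SLIT2 and -0.22 in vehicle libraries. Adam33 differed by -0.46 (limma adjusted p = 0.133, 0.00314 with the block and 0.0705 on averaged duplicates). Adam19, Adam22, Adam28 and Adam4 passed neither with treatment only nor with the block, with differences of 0.10, -0.32, -0.32 and 0.055. With the replicate set as a term, Adam22 and Adam28 passed (limma adjusted p = 0.0438 and 0.0451), and Adam19 and Adam4 did not (0.0537 and 0.585). On averaged duplicates Adam22 and Adam28 did not pass (limma adjusted p = 0.283 and 0.231).

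Of 9 genes listed as partners of ADAM10 and ADAM17 (iRhoms, FRMD8 and tetraspanins), 6 were tested and none passed limma without the block. At an unadjusted p of 0.05, 1 was higher and 1 lower. All genes were not counted at that level, so these counts have no share to be read against. With the block 1 was lower, against 16.4% of all genes tested. The smallest p was that of the iRhom gene Rhbdf1, which differed by -0.34 (limma adjusted p = 0.0640, and 0.0115 with the block). Rhbdf2, whose product carries ADAM17 to the surface of macrophages, differed by 0.21 (limma adjusted p = 0.167, and 0.0546 with the block).

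Of 17 tested genes of membrane proteins known to be shed by ADAMs, 4 rose and 4 fell, with a median difference of -0.085. Of all genes tested, 6.76% rose and 6.58% fell. Alcam, an adhesion molecule, had 12.87 ± 0.053 in SLIT2 and 13.70 ± 0.090 in vehicle libraries (SD, n = 4 each), and fell by 0.84 (limma adjusted p = 7.39e-05). The efferocytosis receptor gene Axl fell by 1.13 (limma adjusted p = 0.000472) and Tnf by 0.71 (0.00570). Tnfrsf1a, which encodes a TNF receptor, rose by 0.55 (limma adjusted p = 0.000483). With the replicate block 5 of the 17 were higher and 8 lower, against 16.6% and 16.4% of all genes tested.

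ADAMTS genes were mostly at the bottom of the scale. Adamts10 averaged 9.47 ± 0.16 in SLIT2 and 9.60 ± 0.10 in vehicle libraries (SD, n = 4 each), a difference of -0.13 (limma adjusted p = 0.418). Adamts1 averaged 4.70 ± 0.058 in SLIT2 and 4.74 ± 0.14 in vehicle libraries (limma adjusted p = 0.818). By limma 0 of these 2 genes passed, where 13.3% of all genes tested did, and 0 passed with the block, where 33.0% did. An unadjusted p under 0.05 was found for 0 of them, a level at which all genes were not counted. Adamts4 and Adamts5, the aggrecan-cutting members, had mean rlog values of 0.20 and 3.10. Adamtsl4, which lies outside the symbol rule and encodes an ADAMTS-like matrix protein without a protease domain, rose by 1.48 (SE 0.17, limma adjusted p = 0.00107). It had 7.75 ± 0.34 in SLIT2 and 6.27 ± 0.19 in vehicle libraries (SD, n = 4 each). Of 14 related genes outside the rule, 3 were tested and this 1 rose, where 6.76% of all genes tested rose.

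Of the inhibitors, Timp1 rose while the far more abundant Timp2 had a difference near 0. Timp1 (ENSMUSG00000001131, chromosome X, 20870166 to 20874735), a secreted inhibitor of many metalloproteases, had 6.64, 6.62, 6.65 and 6.66 in SLIT2 libraries, against 5.58, 5.46, 5.54 and 5.93 in vehicle libraries. The groups did not overlap, and the SLIT2 values lay within 0.04 of each other. The difference was 1.02 (SE 0.11, limma adjusted p = 0.000616), a ratio of 2.02, and was 1.11 and 0.92 within the sets. Timp2, which also helps MMP14 to activate MMP2, averaged 14.19 ± 0.24 in SLIT2 and 14.24 ± 0.26 in vehicle libraries (SD, n = 4 each), a difference of -0.055 (SE 0.15, limma adjusted p = 0.879, and 0.223 with the block). Timp3, a matrix-bound inhibitor that also blocks ADAM17, averaged 6.12 ± 0.33 in SLIT2 and 5.86 ± 0.42 in vehicle libraries (limma adjusted p = 0.555, and 0.270 with the block). Per kilobase, the mean rlog of Timp2 stood at 12.2 and that of Timp1 at 6.31. A further list held 13 other inhibitors, surface regulators and proprotein convertases. Of these, 5 were tested (Bsg, Lrp1, Furin, Pcsk7 and Cst3), and none passed limma without the block. At an unadjusted p of 0.05, 2 were higher and 1 lower. All genes were not counted at that level, so these counts too have no share to be read against. With the block 2 were higher (Bsg and the convertase gene Furin) and 2 lower (Lrp1 and Cst3), against 16.6% and 16.4% of all genes tested. The smallest p there was that of Cst3, the only inhibitor gene of the 5, which acts on cysteine proteases. Cst3 had a difference of -0.17 (limma adjusted p = 0.0585, and 0.0141 with the block).

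Of 27 genes listed for extracellular matrix proteins, 22 were tested, 5 rose and none fell. Of all genes tested, 6.76% rose and 6.58% fell. The median difference of the 22 was 0.32, where that of all genes tested was 0.0025. Tgfbi, an adhesive matrix protein gene, had 14.17 ± 0.16 in SLIT2 and 12.26 ± 0.51 in vehicle libraries (SD, n = 4 each), a difference of 1.92 (limma adjusted p = 0.00125). Lamc1, a laminin chain gene, rose by 0.68, Ecm1 by 0.46 and Spp1, which encodes osteopontin, by 0.62 (limma adjusted p = 0.00649, 0.0362 and 0.0405). The fibronectin gene Fn1 differed by 0.35 (limma adjusted p = 0.191, and 0.0313 with the block). Stromal markers were read beside these genes and Timp1. Of 7 such markers, 4 were tested (Col1a1, Col1a2, Col3a1 and Dcn) and 1 rose, the collagen gene Col3a1, where 6.76% of all genes tested rose. All 4 are also on the matrix list, as is Lum, so these markers are not a separate reading. Only Pdgfra and Pdgfrb are not on that list. The summed linear level of the 7 markers ran from 581 to 905 in SLIT2 and from 482 to 800 in vehicle libraries. Over all libraries, Col1a1, Col1a2, Col3a1 and Dcn had mean rlog values of 8.19, 8.02, 5.28 and 4.36. Pdgfrb, Pdgfra and Lum lay below the limit, at 3.91, 2.28 and -1.95. The part of stromal RNA in the values of the matrix genes and Timp1 was not tested.

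**Figure D5:**
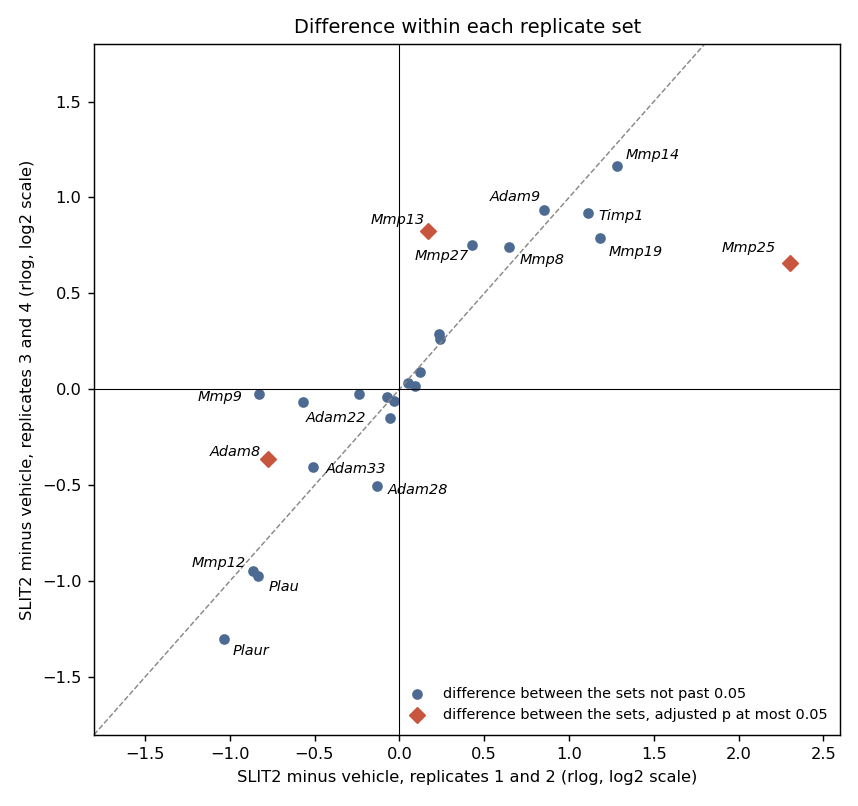
SLIT2 minus vehicle difference in replicates 3 and 4 (y axis) against that in replicates 1 and 2 (x axis), both in rlog on the log2 scale, for the 25 expressed members, with a dashed line where they are equal. Diamonds are Mmp25, Mmp13 and Adam8, whose differences between the sets passed an adjusted p of 0.05. Plaur, Plau, Mmp12, Timp1, Adam9 and Mmp14 lie close to the line.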

How the data were processed

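The submitters' processing notes name STAR, Salmon, DESeq2, Picard 2.23.8, SAMtools 1.7 and FastQC 0.11.9, and the builds GRCm38 and mm10, without roles, order or strand setting. The deposited values are rlog values on a log2 scale with 2 decimals, which correct for library size and shrink low genes towards their mean, so differences of low genes are understated. Genes that reached a mean rlog of 4 (11851 of 41444) went into limma 3.58.1 under R 4.3.3 (mean-variance trend, two-sided, Benjamini-Hochberg over all genes tested, threshold 0.05), with treatment only. Alternatives were a replicate block, a term for the replicate set, averaged duplicates, other filters, scalings and variance priors, and leaving out each library. The steps were also run on simulated data with the same effect in both replicate sets and independent noise in each library. That run cannot show how the fits behave where the effect differs between sets. Summed linear levels are sums of 2 to the power of the rlog, with a listed 0 taken as 0.

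Same-numbered libraries deviated together from their group means across genes (correlations of 0.637, 0.671, 0.753 and 0.587), and the block treats the numbers as pairs. Different numbers of one set did so about as much. SLIT2 1 with vehicle 2 and SLIT2 2 with vehicle 1 gave 0.722 and 0.610. SLIT2 4 with vehicle 3 and SLIT2 3 with vehicle 4 gave 0.679 and 0.601. Pairing by number within a set is therefore not borne out. Replicates 1 minus 2 correlated at only -0.042 between the groups and replicates 3 minus 4 at 0.088, so what is shared is the set.

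Members, lists, tests and alternatives were chosen with earlier results of these data known. Every member past the threshold is named with each library's value, and the other expressed members with their differences or means. From each related list up to 4 genes past the threshold with the smallest p are named, or the one with the smallest p. Other genes were named as background or after their values were seen. Lists were matched by current symbol through gene identifiers, and the symbol rule by the table's symbols, which equalled the current ones for all 73 members. Coordinates and exonic lengths came from GENCODE M21 (GRCm38), and promoters from RefSeq (GRCm38.p6). Of the 25 members tested, 7 share exonic bases with an opposite-strand gene. Of the marker lists, endothelial (2 tested, 0 higher, 0 lower), B cell (0 tested), T cell (1 tested, 1 lower, Cd4) and mast cell (1 tested, 0 higher, 0 lower) genes stand beside no result above. Figures were drawn with matplotlib 3.10.9.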

Additional observations from a re-analysis of the deposited data

Results flagged for a closer look

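Differences of 3 members varied between the replicate sets by a limma test of that difference, taken as the effect in replicates 3 and 4 minus the effect in replicates 1 and 2. It was -1.64 for Mmp25 (0.66 and 2.31), 0.655 for Mmp13 (0.83 and 0.17) and 0.41 for Adam8 (-0.37 and -0.78), with limma adjusted p-values of 0.00207, 0.0315 and 0.0152. All 3 kept their sign in both sets. No library stood far from the other 3 of its group in any of the 50 groups checked. The chance rate of about 1 in 20 holds for 4 values drawn alike. Each group here held 2 libraries from each replicate set, and 19 of the 25 members differed in level between the sets. In groups split this way a single library could hardly stand apart, so the check cannot decide whether one was an outlier.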

How the results depend on the processing

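The 7 members past the threshold became 15 with the replicate block and 17 with the replicate set as a term, and lay between 4 and 7 on leaving out single libraries, the lowest being without SLIT2 replicate 2. Over all genes, 1581 passed, against 3912 with the block, 4652 with the set term, 688 with averaged duplicates and 1021 to 1254 with single libraries left out, the lowest being without SLIT2 replicate 2. The 15 related genes past the threshold became 28 with the block, 31 with the set term and 8 to 11 without single libraries, where they were 9 without SLIT2 replicate 2, 8 without vehicle replicate 1 and 9 without vehicle replicate 3. The set difference was called for 1 member without the mean-variance trend. The cause was not tested.

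Across 445 recomputed member differences, 399 kept direction and side of the threshold, 12 lost and 21 gained a call. Plaur, Timp1, Mmp19 and Adam9 kept their calls in all 18 settings. Mmp12 also lost its call with no filter on low values (limma adjusted p = 0.0503) and Adam8 with averaged duplicates (0.0992), under which Mmp14 (0.0262) and Mmp8 (0.0360) gained one. A further 13 reversed, all near 0 and on leaving out single libraries, where differences ran from -0.00917 to 0.0942 for Adam10, -0.215 to 0.0117 for Adam17, -0.0292 to 0.238 for Adam19, -0.0217 to 0.138 for Adam4 and -0.148 to 0.0217 for Timp2. Scalings moved the median of all genes by under 0.1. Depth is unknown, so members below the limit cannot be called absent.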
